A study of Mus musculus with 8 samples.

Results

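The 9 genes described here, Mbp, Mog, Mag, Mobp, Cnp, Mal, Cldn11, Ermn and Opalin, encode structural proteins of the myelin made by mature oligodendrocytes. They were chosen by name, and each was found by its Ensembl identifier in 1 of the 22430 rows of the long-read gene count table. Their levels were compared between 4 young adult (6m) and 4 aged (24m) mice, all male C57Bl/6JRj animals of a common inbred laboratory strain, for which the labels name no transgene or treatment. Per the methods the RNA came from whole, homogenised hemispheres, which the sample titles call whole brain, and was sequenced on a MinION (ONT) as native RNA, whereas the labels name a cDNA kit for poly(A) RNA. The methods are followed here, and whether an amplification step was used is not settled by the labels. The question was which genes of the myelin sheath differ in RNA level between the aged and the young adult brain.

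Oligodendrocytes wrap axons of the central nervous system with a compacted, lipid-rich membrane that speeds conduction and supports the axon. Mature oligodendrocytes hold large amounts of a small set of transcripts for membrane proteins and adhesion molecules of this sheath, and part of them, Mbp mRNA above all, travels along the processes and is translated beside the growing membrane. In the brain most myelin lies in white matter tracts and the brainstem, so how much of these transcripts a tissue sample holds also follows how much white matter it holds. In homogenised tissue, fewer cells of a type and less RNA per cell cannot be told apart.

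Library totals on genes ran from 573152 to 843706 counts at 6m and from 660398 to 1255424 at 24m, so that 3 counts were worth 2.30 to 5.42 CPM (counts scaled to library size) and genes near that level cannot be compared. Of all genes, 9375 had a mean count over 5 and were tested, among them all 9 myelin genes. A gene is called changed below if its Benjamini-Hochberg adjusted p (padj, edgeR quasi-likelihood test over all tested genes) was at most 0.05 and its absolute log2FC, on the scale of fitted CPM, at least 0.58. Aged replicate 1 stood apart on the second principal component of log2 CPM, at 38.4 against -17.5 to 7.48 in the other 7 libraries, and without it 1132 genes in place of 968 were changed and higher. The tissue label was borne out by oligodendrocyte and neuronal transcripts, whereas the peripheral myelin gene Pmp2 had 0 counts in every library.

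The myelin genes took a larger share of the gene counts in the aged brain. It was 0.238, 0.198, 0.208 and 0.253% of counts in young adult replicates 1 to 4 and 0.360, 0.347, 0.379 and 0.287% in aged replicates 1 to 4, so that the ages did not overlap. The means were 0.224 ± 0.0257% and 0.343 ± 0.0397% (SD, n = 4), 1.53 times higher at 24m, and the widest exact 95% binomial (Clopper-Pearson) interval of a library, which covers counting error only, ran from 0.345 to 0.375% in aged replicate 1. Mbp made up 45.9 ± 4.51% of the counts of the 9 genes at 6m and 53.2 ± 3.73% at 24m. Without Mbp, the other 8 genes summed to 1202 to 1319 CPM at 6m and to 1448 to 1632 CPM at 24m, again without overlap and with a ratio of means of 1.24. On the same CPM scale all 9 genes together had a ratio of 1.43. The ratio of 1.53 above is of shares of unscaled counts and is not comparable with 1.24. These sums over chosen genes were not tested.

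Gene by gene, the members did not move as one. Mbp was the 1 of 9 that changed, and it was higher at 24m, while 968 of the 9375 tested genes (10.3%) were changed and higher and 391 (4.17%) changed and lower. Without young adult replicate 3 or aged replicate 1, 3 of 9 changed, Mal and Cldn11 being added, and without any other library except aged replicate 3 the count was 2. With padj alone, Cnp, Mal, Cldn11 and Mobp rose as well, making 5 of 9 higher and 0 lower (0 lower also at an unadjusted p under 0.05 in edgeR and as changed genes in DESeq2 and limma-voom), beside 12.3% of all tested genes higher and 9.42% lower. The log2FC was positive in 7 of 9, with a median of 0.35, whereas its median over all tested genes was -0.0034. In 1 of 9, Cnp, every aged library exceeded every young adult library, which held for 11.1% of tested genes, and in 0 of 9 did every aged library lie below, which held for 9.96%.

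**Figure D1:**
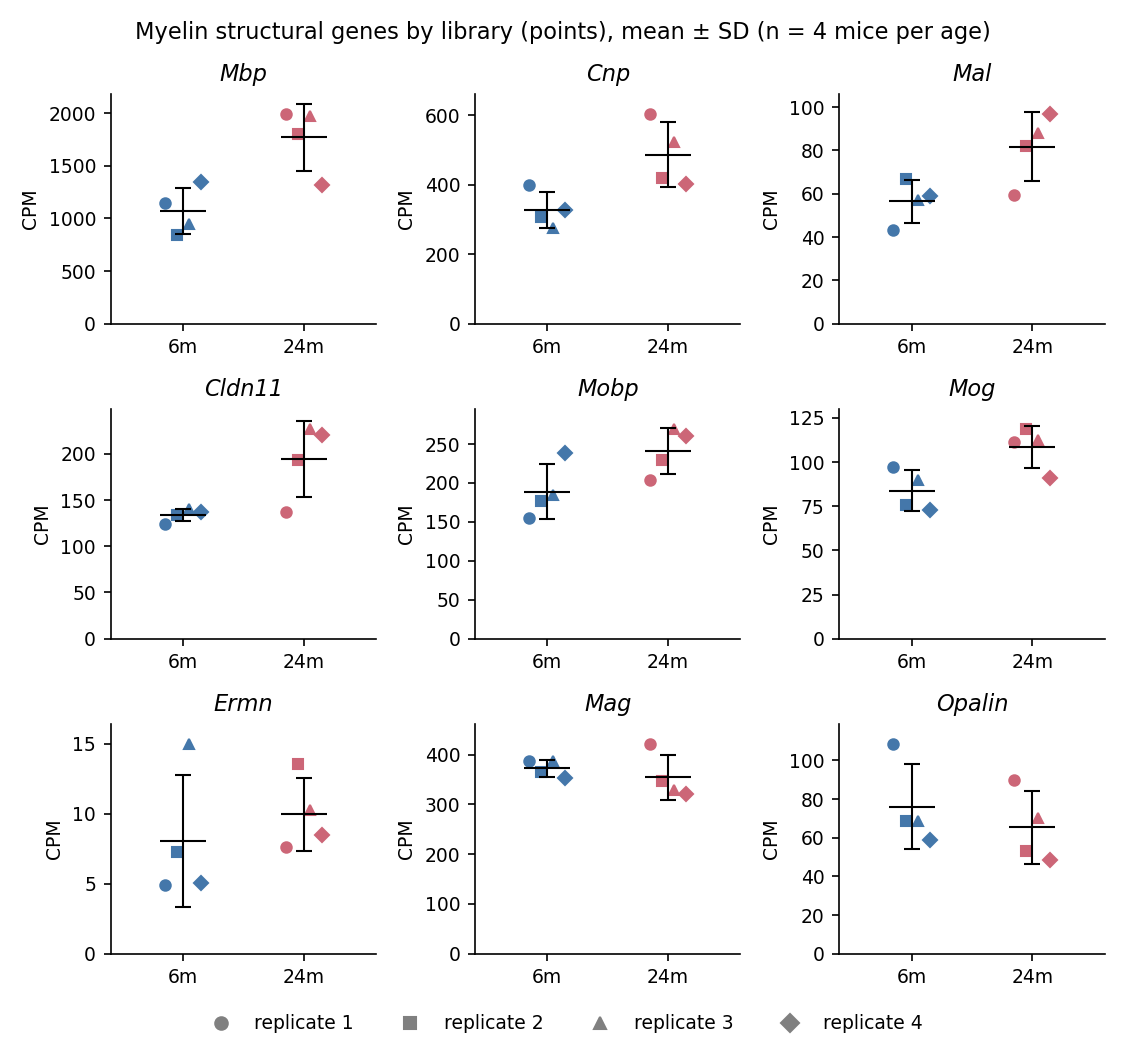
Level of each of the 9 myelin genes in CPM (vertical axis, from 0, with its own scale per gene) in the 4 young adult (6m, blue) and 4 aged (24m, red) libraries, with the symbol giving the replicate and the black marks the mean ± SD. Cnp is the gene whose ages do not overlap, aged replicate 4 is the low aged point of Mbp, Cnp and Mog, and aged replicate 1 is the low aged point of Mal, Cldn11 and Mobp.

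Mbp encodes myelin basic protein, which holds the cytoplasmic faces of the membrane together in compact myelin. The gene (ENSMUSG00000041607) lies at chr18:82493207-82603763 on the plus strand of GRCm39, and its canonical transcript has 7 exons over 2155 bases. It had 934, 468, 762 and 1072 counts in young adult replicates 1 to 4 and 1305, 1738, 1540 and 1713 in aged replicates 1 to 4, that is 1149.6, 846, 948 and 1346 CPM and 1989, 1807, 1971 and 1314 CPM. Aged replicates 1, 2 and 3 lay well above all young adult libraries, but aged replicate 4 was just under young adult replicate 4. The means were 1073 ± 222 and 1770.2 ± 315 CPM (SD, n = 4), and Mbp rose with log2FC 0.72, SE 0.125, padj = 0.00025. It kept this call in all 20 alternative fits, with log2FC of 0.63 to 0.85 when 1 library was left out. Its row also counts the longer transcripts that start upstream and are named Golli, which the gene-level values cannot separate.

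Mobp encodes a small basic protein that, like myelin basic protein, sits at the cytoplasmic face of compact myelin. The gene (ENSMUSG00000032517) spans chr9:119973770-120011273, plus strand, with a canonical transcript of 4 exons and 1566 bases. Its levels were 155, 177, 184 and 239 CPM at 6m and 204, 229.8, 269 and 261 CPM at 24m, so aged replicates 1 and 2 lay inside the young adult range and young adult replicate 4 was higher than both. Mobp rose from 189 ± 35.5 to 241 ± 29.7 CPM (SD, n = 4) with log2FC 0.35, SE 0.126, padj = 0.0438, just within the padj limit and below the fold limit. That call was lost in 8 of 20 alternative fits: with DESeq2, run on raw counts or after quantile normalization (padj = 0.0838 and 0.0832), and without young adult replicate 1, 2 or 3 or aged replicate 2, 3 or 4 (padj from 0.0725 to 0.181). Without aged replicate 1 the log2FC of Mobp was 0.43 with padj = 0.00712 (edgeR).

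Mal encodes a proteolipid involved in sorting proteins to the myelin membrane, and Cldn11 the claudin of the tight junctions between myelin layers. Mal (ENSMUSG00000027375) lies at chr2:127475142-127498615, minus strand, with 4 canonical exons over 2782 bases. It stood at 43.1, 66.9, 57.3 and 59.0 CPM in the young adult and 59.4, 82.1, 88.3 and 96.6 CPM in the aged libraries, with aged replicate 1 alone inside the young adult range. Mal rose with log2FC 0.57, SE 0.171, padj = 0.019, but this padj was not reached with DESeq2 on raw or quantile-normalized counts (padj = 0.0535 and 0.0813), nor without young adult replicate 1 (0.0863) or aged replicate 4 (0.0539). Cldn11 (ENSMUSG00000037625, chr3:31203900-31218495, plus strand, 4 canonical exons, 2169 bases) gave 124, 134, 141 and 137 CPM at 6m, a group that lay close together. Its aged libraries were at 137, 193, 227 and 221 CPM, 3 of them far above and aged replicate 1 within the young adult range. Cldn11 rose with log2FC 0.55, SE 0.136, padj = 0.00506, and padj stayed at or under 0.05 in all 20 alternative fits. Without aged replicate 1 the log2FC was 0.69 for Mal and 0.68 for Cldn11, and both then counted as changed.

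Cnp encodes an enzyme of non-compact myelin, 2',3'-cyclic nucleotide phosphodiesterase, which keeps cytoplasmic channels of the sheath open. The gene (ENSMUSG00000006782) spans chr11:100465730-100482936, plus strand, with 4 canonical exons over 2357 bases. It was at 399, 307, 275 and 328 CPM at 6m and 602, 419, 523 and 401 CPM at 24m, where the lowest aged library, replicate 4, exceeded the highest young adult library, replicate 1, by a small margin. Cnp rose from 327 ± 52.4 to 486 ± 94.1 CPM (SD, n = 4) with log2FC 0.56, SE 0.123, padj = 0.00214, a call at padj that held in all 20 alternative fits. Its log2FC lay on either side of the fold limit, from 0.45 without aged replicate 1 to 0.68 without young adult replicate 1. Exons of Dnajc7 overlap those of Cnp by 670 bases on the opposite strand, and Dnajc7 did not pass the test (log2FC -0.24, padj = 0.239, edgeR).

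Mag and Mog encode immunoglobulin-like cell surface proteins. Myelin-associated glycoprotein faces the axon on the innermost wrap, and myelin oligodendrocyte glycoprotein lies on the outermost. Mag (ENSMUSG00000036634, chr7:30598464-30614474, minus strand, 11 canonical exons, 2007 bases) was at 388, 365, 387 and 353 CPM at 6m and 421, 347, 329 and 321 CPM at 24m. Aged replicate 1 was the highest of the 8 and the other 3 aged libraries were the lowest. With log2FC -0.083, SE 0.0994, padj = 0.597, Mag did not pass the test, and its log2FC stayed between -0.16 and -0.019 without any 1 library and was 0.020 with library sizes alone. Mog (ENSMUSG00000076439, chr17:37321521-37334350, minus strand, 8 canonical exons, 1878 bases) was at 97.2, 75.9, 89.6 and 72.8 CPM and 111, 119, 113 and 91.3 CPM, with 3 aged libraries above the young adult range and replicate 4 within it. Its difference (log2FC 0.35, SE 0.146, padj = 0.0856) missed the limit, which it passed without aged replicate 4 (padj = 0.031) and with library sizes alone (padj = 0.026). Zfp57, whose exons overlap those of Mog by 1474 bases on the opposite strand, had 10 counts over all libraries.

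Opalin encodes an oligodendrocyte membrane glycoprotein that marks late differentiation, and Ermn an actin-binding protein of mature oligodendrocytes. Opalin (ENSMUSG00000050121, chr19:41045254-41065553, minus strand, 6 canonical exons, 2603 bases) was at 108, 68.7, 68.5 and 59.0 CPM at 6m and 89.9, 53.0, 70.4 and 48.3 CPM at 24m, and replicate 1 was the highest library at each age. It had log2FC -0.27, SE 0.198, padj = 0.349 and did not pass the test. Without aged replicate 1 the log2FC was -0.45 with padj = 0.0823, and without young adult replicate 1 it was -0.037. Ermn (ENSMUSG00000026830, chr2:57934641-57942882, minus strand, 3 canonical exons, 4125 bases) had 4, 4, 12 and 4 counts at 6m and 5, 13, 8 and 11 at 24m. Those counts were near the limit of 3, and a difference (log2FC 0.30, SE 0.408, padj = 0.644) was not detectable at this depth.

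**Figure D2:**
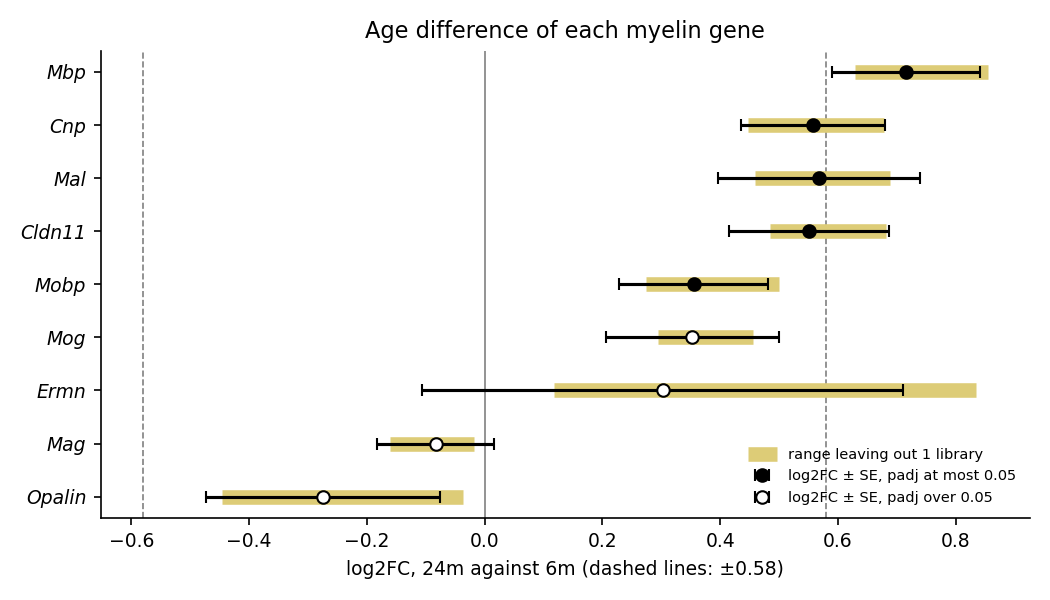
log2FC of 24m against 6m (horizontal axis, dashed lines at ±0.58) for the 9 genes, with points and black bars for the estimate ± SE of the edgeR fit, filled where padj is at most 0.05, and broad bars for the range over the 8 fits that each leave out 1 library. Mbp lies beyond the dashed line in every such fit, the bars of Cnp, Mal and Cldn11 straddle it, and Mag and Opalin lie below 0, where Mag moves to 0.020 with library sizes alone.

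Because all genes of a library share its depth, ratios of counts between myelin genes do not depend on the scaling of libraries. All 36 pairs were compared by an exact two-sided permutation test over the 70 ways to split the libraries, for which 0.0286 is the smallest p. This p was reached by 4 pairs, those whose ages did not overlap. After Benjamini-Hochberg adjustment over the 36 pairs the smallest value was 0.257, so 0 pairs passed. With 0.0286 as the smallest p, a pair could pass only if most of the 36 pairs reached it together. The adjusted values therefore cannot decide whether a single pair differed, and the ratios are given as a description. Mag was part of 3 of the 4 pairs. Mbp outnumbered Mag 2.97, 2.32, 2.45 and 3.81 times in young adult replicates 1 to 4 and 4.73, 5.20, 5.99 and 4.10 times in aged replicates 1 to 4, a difference of 0.81 in the mean log2 ratio that lay between 0.71 and 0.95 when 1 library was left out.

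The ratio of Mag to Cnp was 0.972, 1.19, 1.41 and 1.08 at 6m and 0.699, 0.829, 0.628 and 0.799 at 24m, so that Mag had about as many counts as Cnp or more in the young adult libraries and fewer in each aged one. The ratio of Mog to Mag was 0.251, 0.208, 0.232 and 0.206 at 6m and 0.265, 0.341, 0.342 and 0.285 at 24m, where the gap between the highest young adult and the lowest aged library was small. The fourth pair, Cnp to Opalin, stood at 3.68, 4.47, 4.02 and 5.55 and 6.69, 7.90, 7.44 and 8.30. As a share of the counts of all 9 genes, Mag took 16.2 ± 2.05% at 6m and 10.8 ± 1.17% at 24m (SD, n = 4).

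**Figure D3:**
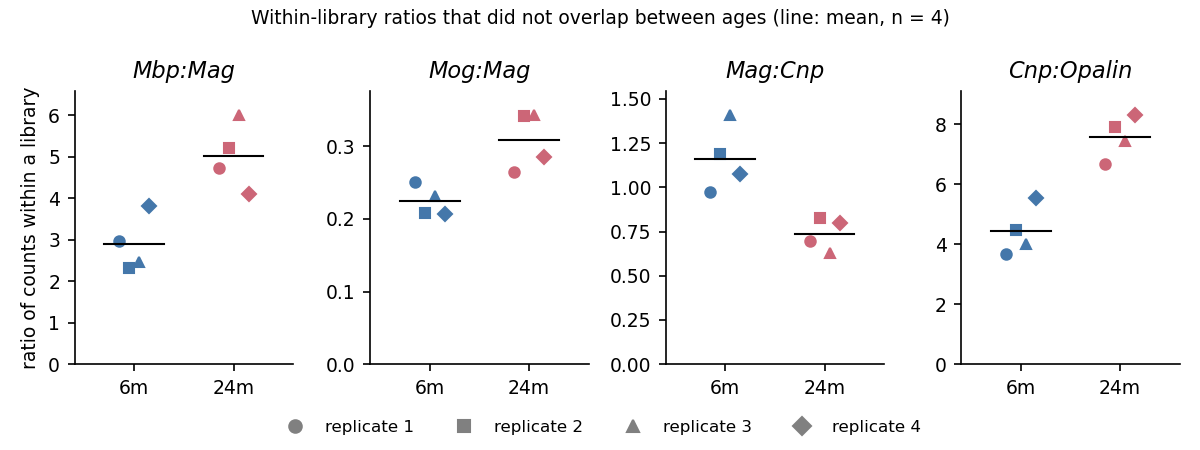
Ratio of the counts of 2 myelin genes within a library (vertical axis, from 0) for the 4 pairs whose ages did not overlap, at 6m (blue) and 24m (red), with the symbol giving the replicate and the line the mean of 4 libraries. Each panel shows the aged points on one side of the young adult points, and the 4 pairs were the ones of 36 at the smallest p of the design.

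Levels of different genes were set side by side as CPM per kilobase of canonical transcript. In the young adult brain the order was Mbp (498 ± 103 CPM per kb, SD, n = 4), Mag (186), Cnp (139), Mobp (121), Cldn11 (61.7), Mog (44.7), Opalin (29.2), Mal (20.3) and Ermn (1.95). On this scale the ranges of Cnp and Mobp, of Mog and Opalin and of Opalin and Mal overlapped, so these neighbours were not apart on it. In the aged brain Cnp (206 CPM per kb) stood before Mag (177) and Mal (29.3) before Opalin (25.1), but both of these pairs overlapped, as did Mag and Mobp (154), and Mbp (821) remained first. Without division by length, the lowest Cnp library (275 CPM) lay above the highest Mobp library (239 CPM) at 6m. The same held at 24m for Mag (lowest 321 CPM) and Mobp (highest 269 CPM). Whether counts of these reads follow transcript length was not tested. The canonical Mag transcript is annotated with a 3' UTR of 3 bases, against 852 to 3128 bases in the other 8 genes, so the per-kilobase level of Mag depends on that transcript model. GC content of the canonical transcripts ran from 37.1% in Ermn to 57.8% in Mag.

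Within an age, the 9 genes did not vary as one either. After subtraction of the mean of each age from log2 CPM, 17 of the 36 pairs had a positive Pearson r over the 8 libraries, with a median of -0.02 and a range from -0.93 (Mag and Cldn11) to 0.89 (Cnp and Opalin). These are descriptions over 8 libraries that share scaling and composition. Mal, Cldn11 and Mobp deviated together (r from 0.66 to 0.82), and each of them deviated against Mag and against Opalin (r from -0.93 to -0.64). Aged replicate 1 was low in Mal, Cldn11 and Mobp and high in Cnp, Opalin and Mag, young adult replicate 1 had the same signs for all 6, and aged replicate 4 had the opposite ones. Aged replicate 1 is also the library that stood apart in composition over all genes, and the part of this in the myelin values was not tested.

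Relative to its mean, the spread of CPM between the libraries of an age differed from gene to gene, and part of it is counting error. The coefficient of variation of CPM was 4.59% for Mag and 5.21% for Cldn11 at 6m. Counting error alone gives 6.09% and 10.2% there, so no spread beyond counting was seen. At 24m these genes had 12.9% and 21.0%, against 5.76% and 7.59% from counting, a difference between the ages that was not tested. Mbp had 20.7% at 6m and 17.8% at 24m (3.56% and 2.60% from counting), and Opalin 28.8% and 28.9% (13.4% and 13.7%). Ermn, with the fewest counts, had 58.9% at 6m and 26.3% at 24m, against 41.4% and 34.0% from counting.

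**Figure D4:**
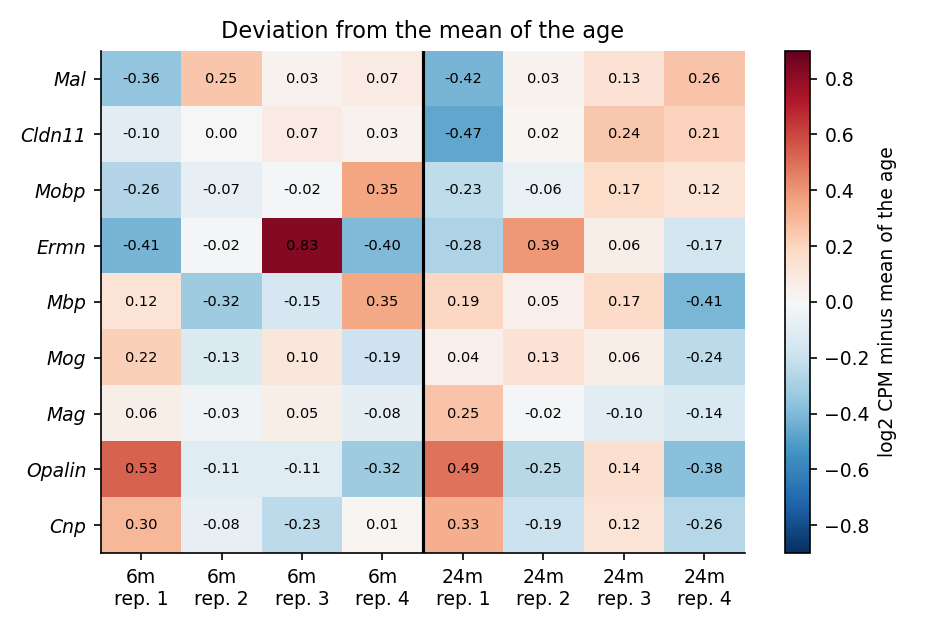
Deviation of log2 CPM from the mean of the age for the 9 genes (rows) in the 8 libraries (columns), in log2 units, with red above and blue below the mean. Replicate 1 of both ages is blue in Mal, Cldn11 and Mobp and red in Mbp, Mog, Mag, Opalin and Cnp, and aged replicate 4 has the reverse signs.

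Oligodendrocyte transcription depends on SOX10 and MYRF, factors known to bind regulatory regions of myelin genes, so the 250 bases before the annotated start of each canonical transcript were read from GRCm39 and searched on both strands for ACAAAG and ACAATG (letters of SOX sites), CTGGCAC and CTGGTAC (letters of MYRF sites) and TATAAA. A SOX word was found in 6 of the 9 genes and in 23.6% of the 21571 protein-coding genes searched in the same way, and a MYRF word in 2 of 9, Cnp and Mog, against 5.79% of all. Among the genes with a SOX word, the windows of Mbp, Mobp and Opalin overlap annotated exons of the same gene. TATAAA was found in 0 of 9 and in 11.9% of all. No 2 of the matches overlapped. The 4 windows printed hold no annotated exon, and they are of Cnp and Mog because these hold MYRF words and of Mal and Cldn11 because they rose at padj and hold none of the 5 words. They are written 5′ to 3′ on the strand of the gene, up to the base before the start, with matches in capitals.
Cnp, chr11:100465480-100465729, plus strand: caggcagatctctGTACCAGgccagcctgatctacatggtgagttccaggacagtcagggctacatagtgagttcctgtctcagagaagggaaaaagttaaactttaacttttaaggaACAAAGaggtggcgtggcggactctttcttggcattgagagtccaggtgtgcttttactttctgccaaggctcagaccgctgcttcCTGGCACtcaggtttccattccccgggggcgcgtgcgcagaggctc
Mog, chr17:37334351-37334600, minus strand: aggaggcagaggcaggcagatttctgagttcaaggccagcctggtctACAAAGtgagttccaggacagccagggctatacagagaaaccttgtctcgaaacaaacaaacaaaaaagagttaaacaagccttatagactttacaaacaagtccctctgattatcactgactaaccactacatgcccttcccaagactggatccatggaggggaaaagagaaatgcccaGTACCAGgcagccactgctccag
Mal, chr2:127498616-127498865, minus strand: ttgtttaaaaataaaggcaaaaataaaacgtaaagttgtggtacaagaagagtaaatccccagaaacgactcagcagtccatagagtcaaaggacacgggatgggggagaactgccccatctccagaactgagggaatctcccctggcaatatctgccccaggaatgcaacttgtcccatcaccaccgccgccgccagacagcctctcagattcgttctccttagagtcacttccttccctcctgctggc
Cldn11, chr3:31203650-31203899, plus strand: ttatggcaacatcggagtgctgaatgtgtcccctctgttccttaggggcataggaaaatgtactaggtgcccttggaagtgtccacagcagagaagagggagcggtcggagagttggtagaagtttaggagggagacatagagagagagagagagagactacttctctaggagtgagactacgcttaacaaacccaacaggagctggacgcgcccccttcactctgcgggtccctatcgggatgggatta

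In Cnp the capitals mark CTGGTAC read on the opposite strand with its first base 237 bases before the start, ACAAAG at 132 and CTGGCAC at 46 bases before it, and in Mog ACAAAG at 203 and CTGGTAC, again on the opposite strand, at 23 bases. A match of letters is a description and not a site of binding. Repeat sequence was not masked in the search, so a match may lie in a repeated element. Of the pair with MYRF words Cnp rose at padj and Mog missed the limit, and Mal and Cldn11, without any of the words in this window, rose at padj.

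The factors themselves were measured at low levels. For the changed genes counted in this and the further lists below, the shares over all tested genes were 10.3% higher and 4.17% lower. Of 11 transcription factors of the lineage, 8 were tested and 1 changed, Sox10, which was higher at 24m (35.7, 43.4, 29.9 and 41.4 CPM at 6m, 71.6, 57.2, 70.4 and 59.1 CPM at 24m, log2FC 0.77, SE 0.173, padj = 0.00237) without overlap between the ages. Olig1, a helix-loop-helix factor of the lineage and the one with the highest counts, went from 87.4, 83.2, 77.2 and 108 to 120.4, 129, 157 and 127 CPM with log2FC 0.58, SE 0.142, padj = 0.0049, just under the fold limit before rounding and past it in 13 of 20 alternative fits. The median log2FC of the 8 was 0.51. Myrf was not called at 6.15, 0, 14.9 and 13.8 CPM and 12.2, 21.8, 26.9 and 17.6 CPM (log2FC 1.07, SE 0.408, padj = 0.0615), and it is named here after its values were seen because of the words above.

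Of 20 further proteins of the sheath 19 were tested and 4 changed and were higher, Tppp and Cntn2 among them. Both averaged over 5 counts only through their aged libraries, so the filter admitted them only because they were higher there. Changed genes were 4 with DESeq2, 2 with DESeq2 after quantile normalization and 3 with limma-voom. With padj alone 7 were higher, these genes again included, and 1 lower, beside 12.3% and 9.42% of all tested genes. The median log2FC was 0.45, and 0.41 without Tppp and Cntn2. Septin8, of the septin filaments of the inner sheath, was higher in every aged than in every young adult library (143, 105, 126 and 99.2 and 181, 192, 183 and 205 CPM, log2FC 0.69, SE 0.127, padj = 0.000445). Tppp, a tubulin-organising protein, had 0 or 1 count in the young adult and 5 to 16 in the aged libraries, and Cntn2, an adhesion protein beside the node, 0 to 3 and 5 to 14 counts. Against 3 counts per young adult library they were at least 2.54-fold and at least 2.87-fold higher. Septin4, the most counted of the list, did not pass the test (log2FC 0.16, SE 0.0955, padj = 0.247).

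Enzymes and carriers of myelin lipids included 3 changed genes of 10 tested, all higher, with a median log2FC of 0.55. Fa2h, which hydroxylates the fatty acids of myelin galactolipids, went from 17.2, 9.04, 14.9 and 15.1 CPM to 24.4, 35.3, 38.4 and 35.3 CPM (log2FC 1.22, SE 0.253, padj = 0.0013). Gltp, a glycolipid transfer protein (log2FC 0.74, SE 0.224, padj = 0.0197), and Fads1, a fatty acid desaturase (log2FC 0.63, SE 0.191, padj = 0.0202), rose with overlapping ages, and padj was over 0.05 or log2FC under 0.58 in 4 and 5 of 20 alternative fits. For Gltp these were the fits without young adult replicate 2 or 3 or aged replicate 2 or 3, and for Fads1 they included those without young adult replicate 1 or 3 or aged replicate 2. Degs1, the most counted, was at log2FC 0.06, SE 0.139, padj = 0.804.

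Secreted and stress-related genes of oligodendrocytes contained the largest rises among these lists apart from genes at the limit of counting, though their median over 13 tested genes was 0.14. Serpina3n, a protease inhibitor (log2FC 1.70, SE 0.302, padj = 0.000291), Il33, an alarmin (log2FC 1.63, SE 0.314, padj = 0.000608), and C4b, a complement component (log2FC 1.27, SE 0.143, padj = 1.06e-06), changed and were higher, each without overlap. C4b has a near-identical copy, C4a, with which reads may be split. Astrocytes and microglia also express some of these genes. Ptgds, the most counted, did not pass the test (log2FC -0.13, SE 0.0897, padj = 0.333), and its direction turned with quantile normalization. Of 12 genes of oligodendrocyte precursors 5 were tested and 0 changed in edgeR, with 0 at an unadjusted p under 0.05 and 0 changed in DESeq2 or limma-voom. Ptprz1, a receptor phosphatase and the most counted of them, was at log2FC -0.083, SE 0.221, padj = 0.834, and its direction turned with library sizes alone and without young adult replicate 3 or aged replicate 1.

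**Figure D5:**
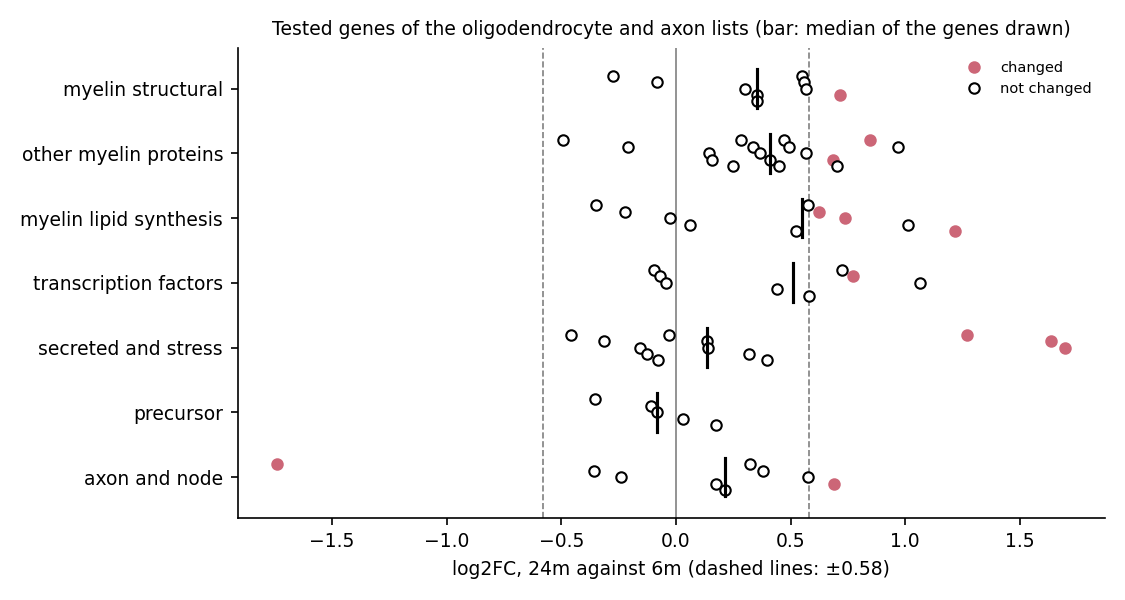
log2FC of 24m against 6m (horizontal axis, dashed lines at ±0.58) of the tested genes of the myelin structural list and 6 further lists (rows), filled where changed, with a bar at the median of the genes drawn. Tppp and Cntn2, at the limit of counting at 6m, are left out, which puts the bar of the other myelin proteins at 0.41 in place of 0.45. Most myelin, lipid and transcription factor genes lie right of 0, and the precursor genes lie around 0.

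On the axonal side, 9 of 10 genes of the node and its surroundings were tested, of which 1 changed and was higher and 1 changed and was lower, with a median log2FC of 0.21. Cntn1, an axonal adhesion protein that meets the myelin loops, rose (log2FC 0.69, SE 0.203, padj = 0.0164), a call lost in 4 of 20 alternative fits, with DESeq2 on raw counts or after quantile normalization and without young adult replicate 1 or aged replicate 2. Kcna1, a potassium channel under the myelin beside the node, fell from 32.0, 14.5, 27.4 and 28.9 CPM to 16.8, 4.16, 14.1 and 1.53 CPM (log2FC -1.74, SE 0.414, padj = 0.00391), a call not made by DESeq2 on raw counts. Nefl, a neurofilament subunit and the most counted, was higher at padj alone (log2FC 0.38, SE 0.128, padj = 0.0336). Over these 6 lists together, 64 of 77 genes were tested, and 12 changed and were higher (16 without aged replicate 1) and 1 lower. The 12 include Tppp and Cntn2, which passed the filter only through their aged libraries. Over all tested genes 10.3% were changed and higher and 4.17% changed and lower.

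Markers of other cells moved with age beside the myelin genes. Beside the counts of changed genes in this and the next paragraph stand 10.3% higher and 4.17% lower over all tested genes (edgeR). The summed levels were 3206 to 3443 CPM at 6m and 4051 to 4480.2 CPM at 24m for 10 neuronal genes, of which 4 changed and were higher (changed genes 3 with DESeq2, 2 with DESeq2 after quantile normalization and 4 with limma-voom), 819 to 875 CPM at 6m and 1022 to 1299 CPM at 24m for 10 microglial genes with 3 higher of 8 tested (2, 2 and 3 with the same tools), and 2551 to 3034 CPM at 6m and 2563 to 3298 CPM at 24m for 8 astrocytic genes with 3 higher and 1 lower of 7 tested (3, 3 and 4 changed). Blood genes fell in 5 of 5 in edgeR (changed genes 4 with DESeq2, 2 with DESeq2 after quantile normalization and 3 with limma-voom), with summed levels of 6090.3 to 10032 CPM at 6m and 3350.4 to 6283 CPM at 24m, and the near-identical alpha and beta globin copies among them share reads. Endothelial genes summed to 1063 to 1155 CPM at 6m and 768 to 918 CPM at 24m, with 0 changed of 3 tested (edgeR, 2 lower at padj alone and 2 at an unadjusted p under 0.05, with 0 in DESeq2 and 1 in limma-voom). Choroid plexus genes (3094 to 4612 CPM at 6m and 2394 to 4618 CPM at 24m) had 0 changed of 4 tested in edgeR, 0 in DESeq2 and limma-voom, 1 lower at padj alone and 2 at an unadjusted p under 0.05. In the astrocytic, endothelial and choroid plexus lists a single gene held most of the sum. In 6m means it held 2341 of 2824, 998 of 1107 and 3436 of 3831 CPM, so these sums mainly follow that gene.

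For the region of the brain sampled, cerebellar genes summed to 456 to 796 CPM at 6m and 651 to 933 CPM at 24m, with 2 changed and higher of 7 tested in edgeR, 1 changed in DESeq2, 0 in DESeq2 after quantile normalization and 1 in limma-voom. Forebrain genes summed to 821 to 895 CPM at 6m and 889.8 to 1011 CPM at 24m, with 0 changed of 4 tested in edgeR, 0 in DESeq2 and limma-voom, 1 higher at padj alone and 2 at an unadjusted p under 0.05. Of 6 genes of peripheral myelin, 2 were tested, and Pmp22, which central cells express too, changed and was higher (log2FC 1.05, SE 0.226, padj = 0.00173), with Pmp2 at 0 counts. The part of these cell types and regions in the myelin values was not tested.

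Among 2712 genes with a mean count over 50, the ones whose deviations from the age mean were most like the mean deviation of the 9 myelin genes over the 8 libraries were Syn2 (r = 0.96), Psd (0.93), Ruvbl1 (0.92), Slc17a7 (0.91), Map2k7 (0.90), Map6 (0.89), Arhgef4 (0.89) and C4b (0.87). For Syn2, a synaptic vesicle protein, r was 0.92 to 0.97 when any 1 library was left out. Of the oligodendrocyte lists C4b was the one gene among these 8. The mean deviation itself ran only from -0.11 to 0.11 log2 units, because the 9 genes deviated in different directions, so it stands for no single member. In young adult replicate 3 it was 0.063, with Ermn, which had few counts, at 0.83. With 8 libraries and 2712 genes, high values of r arise for some genes in any case, and these are given as a description.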

How the data were processed

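The authors deposited unnormalized counts of ONT direct RNA reads on genes, with 1 library per mouse. Per the methods and the submitters' processing notes, reads were mapped to GRCm39 with minimap2 (2.24) and counted with featureCounts. The strand and multi-mapping settings are not given in the sources used here, so reads of overlapping genes on opposite strands cannot be told apart, and where the labels name a cDNA kit and the methods direct RNA sequencing, the methods were followed. Low-count filtering, quantile and row-wise median normalization came after these values in the study. The fit reported here used neither normalization step. Quantile normalization entered alternative fits only, and the row-wise median step was left out throughout. Each of the 8 columns was mapped to its sample by its label.

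Ages were compared for genes averaging over 5 counts, in R 4.3.3 with edgeR 4.0.16 (quasi-likelihood test, TMM library sizes, age as the only term), with Benjamini-Hochberg adjustment over all 9375 tested genes. Changed genes had padj at most 0.05 and absolute log2FC of at least 0.58. CPM use TMM library sizes, and log2 CPM a prior count of 2. P-values measure the spread between these 8 mice. Alternatives were DESeq2 1.42.0 on raw and quantile-normalized counts, limma-voom (3.58.1), other scaling and filters, a replicate block and leaving out each library. The ratios between members and the values without aged replicate 1 were added after the counts had been seen.

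Symbols, positions and lengths come from GENCODE vM39, to which 22281 of 22430 rows were matched by Ensembl identifier, including all 9 members, and upstream sequences from the GRCm39 genome. With BLAST 2.17.0, 0 of the 9 canonical transcripts had a copy in another gene at 95 percent identity over 50 percent of its length, and of the other named list genes C4b had 1, C4a. Same-strand exon overlap was found for Mobp, with 219 bases of Gm38642. The members and lists were chosen with earlier results of these data known. Named genes are the 9 members, every changed gene and the most counted gene of each further oligodendrocyte and axon list, and the 8 genes most like the members. Some genes that this rule selects or that the lists hold are counted but not reported by name here.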

Additional observations from a re-analysis of the deposited data

Results flagged for a closer look

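Among 62 groups of 4 libraries (levels of the named genes, totals and shares), 7 held a library whose gap to the nearest other exceeded Dixon's 95% critical value, where chance gives about 3.1. In aged replicate 4, Mbp made up 47.6% of the counts of the 9 myelin genes, against 54.7 to 55.4% in the other aged libraries. The same library was low in C4b, at 120 CPM against 145 to 148 CPM, and in Cntn2, at 3.84 CPM against 14.1 to 15.2 CPM. Serpina3n was high in young adult replicate 4, at 26.4 CPM against 7.39 to 9.96 CPM in the others, and Septin4 low in young adult replicate 3, at 347 CPM against 398 to 404 CPM. Tppp had no count in young adult replicate 2 (0 CPM, against 1.23 to 1.26 CPM, which is 1 count per library). That library was also the shallowest of its age, with 573152 counts against 818963 to 843706.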

How the results depend on the processing

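Of the 9 myelin genes, 1 changed and was higher in the fit reported. This count was 2 with DESeq2 or limma-voom on quantile-normalized counts and with a total count over 5, filterByExpr or no filter, 4 with library sizes alone, 5 with the adjusted p alone, and 1 to 3 without 1 library (3 without young adult replicate 3 or aged replicate 1, 1 without aged replicate 3, and 2 without any other). At padj alone, 5 became 3 with DESeq2, raw or quantile-normalized, and 3 to 5 without 1 library (3 without young adult replicate 1). Over all tested genes, 968 higher became 629 with DESeq2 on raw counts and 547 after quantile normalization, and 391 lower became 205 with DESeq2 on raw counts, 223 with library sizes alone and 883 with the adjusted p alone. Of the changed genes 71.2% were higher, 84.5% with library sizes alone, which moved the median of all genes to 0.10, and 59.2% with limma-voom on quantile-normalized counts. In the 6 further lists, 12 higher became 20 and 1 lower became 4 with the adjusted p alone, and 1 lower became 0 with DESeq2 on raw counts. Direction turned in 3 genes: Mag (0.020 with library sizes alone), Ptgds (0.15 with DESeq2 and 0.16 with limma-voom on quantile-normalized counts) and Ptprz1 (0.025 with library sizes alone, and -0.30 to 0.084 without 1 library). The cause was not tested. Same-numbered libraries did not deviate together (r from -0.16 to 0.06), and a replicate block gave 940 higher and 368 lower, with 1 myelin gene changed and 5 at padj. Ermn, Tppp and Cntn2 had libraries at or near 3 counts, where differences are not resolved well.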
